A study of Rattus norvegicus with 6 samples.

Results

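The insulin-like growth factor (IGF) genes described here are 10 of the 17954 genes counted in chondrocytes of the rat mandibular condyle, the cartilage-covered head of the jaw joint. They are the ligands Igf1 and Igf2, the receptor Igf1r, the binding proteins Igfbp2 to Igfbp6 and the pappalysins Pappa and Pappa2. They and the gene lists below were chosen by name, with earlier results of these data known. The percentages of them called are therefore descriptions only. A total of 9 matched a gene symbol in the files, and Pappa, which the files list under its older symbol, matched by gene ID (313262). Expression was measured by mRNA sequencing in 3 libraries of 2D culture (cells grown flat in DMEM with fetal bovine serum) and 3 libraries of condylar organoid (cartilage-like tissue formed in vitro and kept in a chondrogenic medium). Format, medium and serum therefore changed together and cannot be told apart. The labels give no strain, age, sex, passage or time in culture. They also leave unsaid if replicates stem from different animals or dishes. A p-value here only sets the difference between the groups against the spread among these libraries within a group, and that spread may be technical.

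IGF-I and IGF-II are secreted growth factors that act through the type 1 IGF receptor, a tyrosine kinase that signals through IRS adaptors, PI3 kinase and AKT. In cartilage they promote growth of the chondrocyte columns and synthesis of matrix. The IGF binding proteins hold the ligands outside the cell and limit or prolong their action. The pappalysins are metalloproteases that cut some of these binding proteins and release the ligand: PAPP-A acts on IGFBP4 and IGFBP5, and PAPP-A2 on IGFBP3 and IGFBP5. The secreted stanniocalcins STC1 and STC2 inhibit the pappalysins.

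Library totals were 18592574 to 26472447 counts. Levels are counts per 1000000 library counts (CPM) after TMM scaling, which corrects for library composition, with means as ± SD (n = 3). Changes are log2 ratios of organoid to 2D culture with ± SE. A gene was called, and is said to have risen or fallen, where edgeR's quasi-likelihood test gave an adjusted p below 0.05. Calls were made for 27.5% of the 13052 genes tested, 14.9% being higher in organoids and 12.6% lower, while for 53.5% the groups did not overlap. Calls numbered 3594, and leaving out 2D culture 1, 2 or 3 gave 1114, 1211 or 1109, while leaving out organoid 1, 2 or 3 gave 4589, 5321 or 4783. Organoid libraries differed more from each other than 2D libraries did, with a median SD of log2 CPM of 0.69 against 0.14.

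Chondrocyte markers were unevenly present in 2D culture. Its libraries held 51.4 to 55.4 CPM of Sox9 and 1413 to 1513 CPM of Acan, but 2.91 to 4.89 CPM of Col2a1, and Matn3 was at 0 counts in 2D culture 1. The summed level of 8 chondrocyte markers was 1499 to 1601 CPM in 2D culture and 11486 to 99455 CPM in organoids. Most of the sum was Acan in 2D culture, while in organoid 1 most was Col2a1, at 78321 CPM. Of the 8 markers, 7 were called higher, and Acan did not pass (edgeR adjusted p = 0.0824). The summed level of 6 hypertrophic chondrocyte markers was 539 to 610 and 19740 to 28559 CPM, and all 6 were called higher. For 6 osteoblast markers it was 107 to 119 and 2707 to 4127 CPM, and all 6 were called higher, against 14.9% of all genes. The opposite was seen for the summed level of 6 smooth muscle and myofibroblast markers, most of it Tagln. That sum was 3611 to 3889 CPM in 2D culture and 34.0 to 63.5 CPM in organoids, with 5 called lower. The other marker, Des, was at 0.642 to 0.898 CPM in 2D culture and 16.4, 0.0601 and 6.39 CPM in organoids. It did not pass (3.38 ± 1.47, edgeR adjusted p = 0.133). Of 6 fibroblast and tendon markers, 4 were called lower and 2 did not pass, against 12.6% of all genes called lower. Of 7 macrophage and blood cell markers, 3 had at most 3 counts in every library, among them the pan-leukocyte gene Ptprc. Csf1r was at 32.5, 16.7 and 0.142 CPM in organoid 1, 2 and 3. Of 2 tested osteoclast markers, Acp5 was called higher and Ctsk did not pass. Acp5 was at 3.55 to 4.35 CPM in 2D culture and 99.0, 23.2 and 14.8 CPM in organoids. Calls were made for 2 of 3 tested skeletal muscle markers, 1 of 2 adipocyte, 1 of 3 neural and 0 of 1 epithelial markers. Over all genes 27.5% were called. Endothelial markers summed to at most 6.61 CPM in any library. The part of these shifts in the results below was not tested. In such bulk samples, fewer cells of a type and less RNA per cell cannot be told apart.

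Among the members, 1 ligand gene, 3 binding protein genes and both pappalysin genes changed between the cultures, while Igf1, Igf1r, Igfbp3 and Igfbp4 did not pass the test. Organoids held 7.61-fold more Igf2, 66.7-fold less Igfbp2, 5.48-fold less Igfbp6 and 4.97-fold less Pappa, and Pappa2 was not detected in them. Igfbp5 was the other member that rose, by 3.45-fold. All 10 members were tested and 6 were called, or 60%, against 27.5% of all genes; 2 rose (14.9% of all genes did) and 4 fell (12.6%). Without 2D culture 1, 2 or 3, 4 were called, without organoid 1, 2 or 3, 6, 7 or 8, and when scaled by total library size instead of TMM 1 rose and 5 fell. Their median log2 fold change was -0.83, against -0.03 over all genes. The groups did not overlap for 7 members, against 53.5% of all genes: 2 were higher in every organoid (23.4% of all genes) and 5 lower (30.2%).

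**Figure D1:**
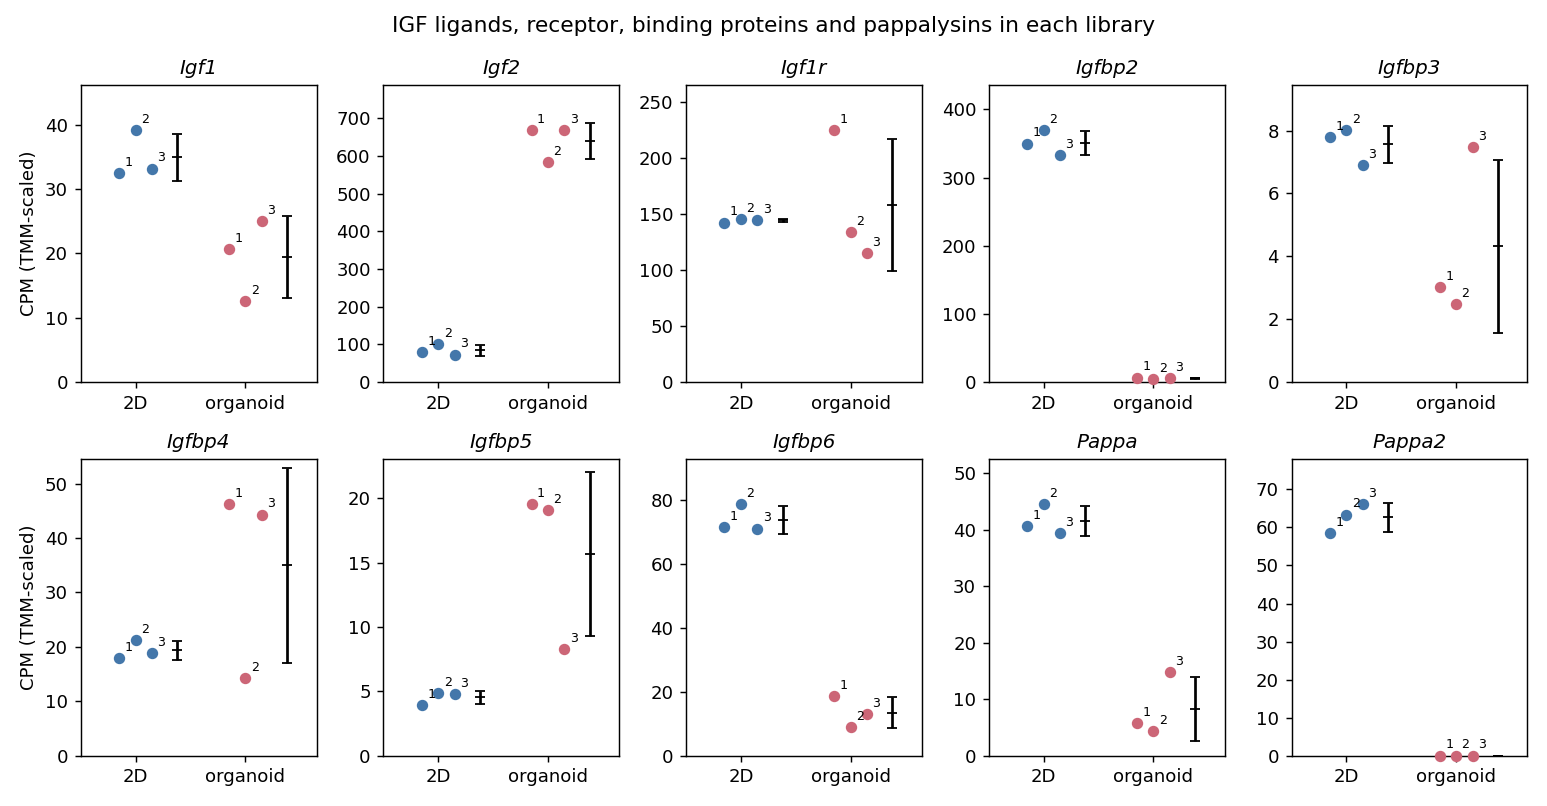
Level of each of the 10 genes (vertical axis, TMM-scaled CPM, starting at 0, with a separate scale per panel) in the 3 libraries of 2D culture (blue) and the 3 of organoid (red); small digits are replicate numbers, and the black marks are mean ± SD. Igf2 averaged 640.3 CPM in organoids against 84.1 CPM in 2D culture, Igfbp2 was nearly lost and Pappa2 was at 0 in all organoids.

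Igf2 (gene ID 24483) encodes IGF-II, the main growth factor of the family in fetal tissue. Its level was 79.5, 100.3 and 72.6 CPM in 2D culture 1, 2 and 3, and 669, 584 and 668 CPM in organoid 1, 2 and 3. Every organoid was far above every 2D library. The means were 84.1 ± 14.4 and 640.3 ± 48.9 CPM, and the gene rose by 2.93 ± 0.23 (edgeR adjusted p = 0.000574). Among the detected members, it alone varied less in organoids (SD of log2 CPM 0.11) than in 2D culture (0.24). Organoid 1 had a fractional count for Igf2, which can arise where reads match more than 1 gene.

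Igf1 (gene ID 24482) encodes IGF-I, the ligand through which growth hormone acts on the skeleton. It stood at 32.5, 39.2 and 33.2 CPM in 2D culture and 20.7, 12.6 and 25.1 CPM in organoids. All organoids lay below all 2D libraries, but the difference did not pass (-0.85 ± 0.31, edgeR adjusted p = 0.0831). Leaving out organoid 3 brought it past the threshold (-1.08, adjusted p = 0.0385), as did scaling by total library size (-1.48, adjusted p = 0.0141). The ratio of Igf2 to Igf1 counts within a library does not depend on scaling. That ratio was 2.19 to 2.56 in 2D culture and 26.7 to 46.5 in organoids, a 14.3-fold change of the geometric mean, with no overlap.

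The receptor gene Igf1r (gene ID 25718) gave no difference beyond the spread between libraries. Its level was 142, 145 and 145 CPM in 2D culture and 225, 133 and 115 CPM in organoids, so that the groups overlapped and organoid 1 stood highest. The fitted difference was 0.13 ± 0.28 (edgeR adjusted p = 0.765), and its sign turned without organoid 1 (-0.19) and with total library size (-0.54). All 6 libraries had fractional counts for this gene, so its level is less certain. The ratio of Igf2 to Igf1r counts was 0.50 to 0.69 in 2D culture and 2.98 to 5.80 in organoids.

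Igfbp2 (gene ID 25662), a binding protein with a preference for IGF-II, showed the largest fall of a member still detected in organoids. It was counted at 350, 370 and 333 CPM in 2D culture and at 6.36, 4.21 and 5.20 CPM in organoids. All organoids lay far below all 2D libraries and close to each other. The fitted change was -6.06 ± 0.27 (edgeR adjusted p = 0.000142), and 230 called genes fell further. The ratio of Igf2 to Igfbp2 counts was 0.218 to 0.271 in 2D culture and 105 to 139 in organoids, a 519-fold change.

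Igfbp6 (gene ID 25641), which binds IGF-II far more tightly than IGF-I, also fell. It was at 71.6, 78.9 and 71.1 CPM in 2D culture and 18.6, 8.83 and 13.01 CPM in organoids. The groups did not overlap, and organoid 2 was the lowest library. The change was -2.46 ± 0.31 (edgeR adjusted p = 0.00305).

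Igfbp5 (gene ID 25285), a binding protein that attaches to extracellular matrix and bone mineral, rose from a low level. It was at 3.95, 4.86 and 4.77 CPM in 2D culture and 19.6, 19.1 and 8.28 CPM in organoids. Organoid 3 was well below the other organoids but above every 2D library. The change was 1.79 ± 0.45 (edgeR adjusted p = 0.0271). It did not pass without 2D culture 1, 2 or 3 (adjusted p = 0.127, 0.107 and 0.115), nor with total library size (1.14, adjusted p = 0.097).

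Igfbp4 and Igfbp3 did not pass, and in both 1 organoid stood apart. Igfbp4 (gene ID 360622), an inhibitor of IGF action and the classical substrate of PAPP-A, was at 18.0, 21.2 and 18.8 CPM in 2D culture and 46.3, 14.3 and 44.3 CPM in organoids. Organoid 2 lay below all 2D libraries and the other organoids above them (0.85 ± 0.45, edgeR adjusted p = 0.198). Without organoid 2 the gene passed (1.28, adjusted p = 0.00343). Igfbp3 (gene ID 24484), the main IGF carrier of blood plasma, was at 7.78, 8.01 and 6.90 CPM in 2D culture and 3.005, 2.46 and 7.48 CPM in organoids. Here organoid 3 fell within the range of 2D culture (-0.81 ± 0.57, edgeR adjusted p = 0.331). Without organoid 3 the gene passed (-1.48, adjusted p = 0.0245).

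Together the transcripts of Igfbp2 to Igfbp6 summed to 435 to 482 CPM in 2D culture and 48.9 to 93.7 CPM in organoids. The make-up of the sum changed with it. Igfbp2 accounted for 76.9 ± 0.538% of these counts in 2D culture and 7.35 ± 1.09% in organoids. The share of Igfbp4 went from 4.23 ± 0.222% to 45.1 ± 14.2%, and that of Igfbp5 from 0.993 ± 0.110% to 23.5 ± 14.4%. Organoids differed in these shares: Igfbp4 held 49.3%, 29.2% and 56.6% in organoid 1, 2 and 3, and Igfbp5 held 20.9%, 39.1% and 10.6%. The share of Igfbp6 was 16.2 ± 0.274% and 18.2 ± 1.59%, and that of Igfbp3 was 1.66 ± 0.0694% and 5.93 ± 3.27%. Every share except that of Igfbp2 was higher in each organoid than in each 2D library. These are shares of counts, without a correction for transcript length, so they do not rank 1 gene against another. A share also depends on the other genes in the sum, and the sum fell with Igfbp2. A higher share is therefore not a higher level: Igfbp4 in organoid 2 stood at 14.3 CPM, below all 2D libraries. Igfbp6 fell although its share was slightly higher, at 16.6% to 19.8% in organoids against 15.9% to 16.3% in 2D culture.

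**Figure D2:**
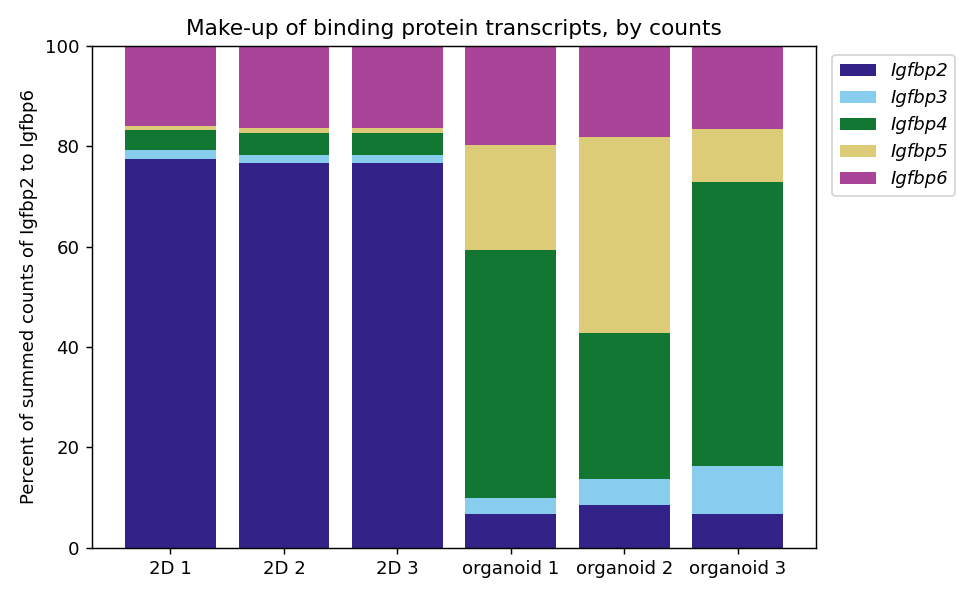
Percent of the summed counts of Igfbp2 to Igfbp6 (vertical axis, 0 to 100) taken by each gene in each of the 6 libraries (bars). Igfbp2 held 76.6% to 77.5% of the counts in 2D culture and 6.65% to 8.60% in organoids. The shares of Igfbp3, Igfbp4, Igfbp5 and Igfbp6 were each higher in every organoid than in every 2D library. Those of Igfbp4 and Igfbp5 differed widely between organoids.

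Both pappalysin genes fell. Pappa2 (gene ID 680415) was at 58.6, 63.4 and 66.2 CPM in 2D culture, from 1911, 2074 and 2138 counts, and at 0 counts in organoid 1, 2 and 3. A count of 0 allows up to 0.142 to 0.180 CPM in an organoid library. Set against 3 counts over the 3 organoids, Pappa2 was at least 1144.5-fold lower (edgeR adjusted p = 0.000343). Its product cuts IGFBP3 and IGFBP5. Only 3 genes had 0 counts in every organoid and at least 1000 in every 2D library, a threshold set after the values were seen: Pappa2, the interleukin receptor gene Il1rl2 and Scrn1.

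Pappa (gene ID 313262) was at 40.6, 44.5 and 39.4 CPM in 2D culture and 5.77, 4.39 and 14.8 CPM in organoids. Organoid 3 was the highest of the organoids and still below every 2D library. The gene fell by 2.31 on the log2 scale, with an SE of 0.487 (edgeR adjusted p = 0.0159). It did not pass without 2D culture 1, 2 or 3 (adjusted p = 0.0668, 0.0668 and 0.0635). Organoid 3 was also the highest organoid in Igf1 and Igfbp3 and the lowest in Igf1r and Igfbp5.

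The sequences upstream of Igf2, Igfbp2 and Pappa2 are shown because these members changed most. RefSeq (GRCr8) windows of 300 bases, from 250 before to 50 after a gene start, were found for 9 of the 10 members, with 2 windows for Igf2. Capitals mark matches on either strand to any of 5 motifs, whose share is given among 33469 windows of this length. The GC box core GGGCGG was in 33.1% of them. The TATA box TATAAA was in 14.2%. Hypoxia response cores were read as ACGTG, in 19.3%, and also as GCGTG, in 29.7%. The forkhead core, which FOXO factors bind, was read as GTAAACA and was in 3.78%. All are written 5′ to 3′ on the strand of the gene.
Igf2 window 1 (chr1:207253931-207254230, minus strand): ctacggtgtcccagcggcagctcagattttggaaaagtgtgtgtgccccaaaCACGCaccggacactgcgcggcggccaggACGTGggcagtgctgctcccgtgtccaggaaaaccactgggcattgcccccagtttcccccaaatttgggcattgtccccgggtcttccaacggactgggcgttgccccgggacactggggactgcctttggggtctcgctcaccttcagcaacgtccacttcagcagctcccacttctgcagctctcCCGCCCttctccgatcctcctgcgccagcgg
Igf2 window 2 (chr1:207250426-207250725, minus strand): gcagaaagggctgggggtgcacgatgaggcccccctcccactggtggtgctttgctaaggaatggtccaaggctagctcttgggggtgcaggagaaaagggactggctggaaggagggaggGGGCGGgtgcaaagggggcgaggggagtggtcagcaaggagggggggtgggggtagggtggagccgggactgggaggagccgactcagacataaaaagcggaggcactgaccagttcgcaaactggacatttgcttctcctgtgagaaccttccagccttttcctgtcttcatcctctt
Igfbp2 (chr9:81864561-81864860, plus strand): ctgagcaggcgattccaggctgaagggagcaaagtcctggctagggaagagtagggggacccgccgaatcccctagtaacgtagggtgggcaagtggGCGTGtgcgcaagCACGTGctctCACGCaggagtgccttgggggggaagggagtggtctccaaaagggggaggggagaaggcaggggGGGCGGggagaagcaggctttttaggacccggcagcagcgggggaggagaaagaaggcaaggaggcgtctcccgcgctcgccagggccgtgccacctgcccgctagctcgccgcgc
Pappa2 (chr13:73681519-73681818, minus strand): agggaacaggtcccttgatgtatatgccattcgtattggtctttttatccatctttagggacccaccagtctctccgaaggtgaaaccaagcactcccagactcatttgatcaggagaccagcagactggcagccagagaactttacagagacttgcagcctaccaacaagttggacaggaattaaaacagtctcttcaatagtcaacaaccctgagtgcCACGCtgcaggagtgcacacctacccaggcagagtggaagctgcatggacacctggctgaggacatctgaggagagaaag
The Igfbp2 window held 20 CpG dinucleotides, 1 GC box core and 2 matches each to ACGTG and GCGTG. Its ACGTG matches overlap, as both strands of 1 palindrome. The windows of Igf2 held 19 and 7 CpG dinucleotides and 1 GC box core each, and the first also 1 ACGTG and 1 GCGTG. The Pappa2 window had 3 CpG dinucleotides, below the median of 7, and 1 GCGTG. The forkhead core occurred among members in Igfbp6 and the TATA box in Igfbp4. A match is a description of the letters and not a binding site, and which start these cells used was not analysed here.

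Genes whose products act with the members were examined next. Of 14 listed family partners, 13 were in the files and 10 were tested; 4 rose, 2 fell and 4 did not pass, and their median log2 fold change was 0.56. That is 60% called, against 27.5% of all genes (14.9% higher, 12.6% lower). The number called was 2, 3 or 2 without 2D culture 1, 2 or 3, and with total library size 3 rose and 3 fell.

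The stanniocalcin genes, whose products inhibit pappalysins, rose most in this list. Stc1 was at 2.54, 3.03 and 2.57 CPM in 2D culture and 83.7, 40.0 and 52.0 CPM in organoids. The change was 4.43 ± 0.37 (edgeR adjusted p = 0.000751). Stc2 was at 2.02, 1.93 and 1.30 CPM in 2D culture and 73.3, 28.2 and 42.4 CPM in organoids. It rose by 4.77 ± 0.47 (edgeR adjusted p = 0.00118). Both genes were lowest, among organoids, in organoid 2, and there still far above 2D culture. The ratio of Stc2 to Pappa counts was 0.0330 to 0.0498 in 2D culture and 2.87 to 12.7 in organoids, and the ratio of Stc1 to Pappa counts was 0.0626 to 0.0679 and 3.51 to 14.5. Those are 149-fold and 119-fold changes.

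**Figure D3:**
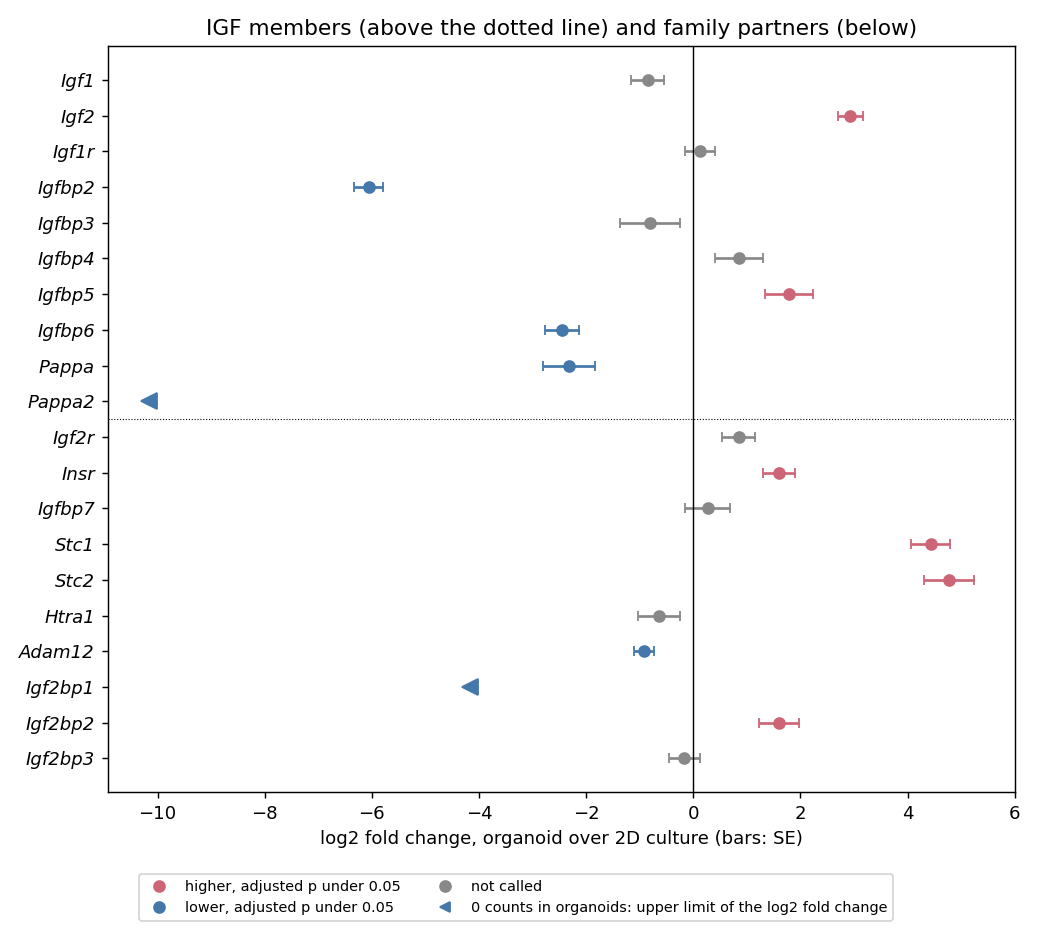
Log2 fold change of organoid over 2D culture (horizontal axis, bars are SE) for the 10 members above the dotted line and the 10 tested partners below it; red and blue are called higher and lower, grey did not pass. Triangles give the upper limit for Pappa2 and Igf2bp1, which had 0 counts in organoids; the stanniocalcins Stc1 and Stc2 lie farthest to the right and Pappa2 and Igfbp2 farthest to the left.

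Of the other proteases of binding proteins, 1 fell and 1 did not pass. Adam12, a metalloprotease that can cut IGFBP3 and IGFBP5, stood at 185 ± 11.3 and 98.0 ± 12.5 CPM and fell by 0.92 on the log2 scale (edgeR adjusted p = 0.015). It did not pass when any 1 of 2D culture 1, 2 and 3 was left out (adjusted p = 0.0733 to 0.0839). Htra1, a serine protease that cuts IGFBP5, was at 930, 848 and 884 CPM in 2D culture and 909, 323 and 475 CPM in organoids and did not pass (-0.64 ± 0.39, edgeR adjusted p = 0.263). It passed without organoid 1 and with total library size.

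Of the other receptors, Insr, the insulin receptor, rose from 12.1 ± 1.96 to 36.7 ± 10.2 CPM (1.60 ± 0.30, edgeR adjusted p = 0.0111). It did not pass without 2D culture 1 or without 2D culture 3 (highest adjusted p = 0.0733). The ratio of Insr to Igf1r counts was 0.0736 to 0.0984 in 2D culture and 0.205 to 0.286 in organoids. Igf2r, the scavenger receptor that clears IGF-II, was at 174, 195 and 172 CPM in 2D culture and 466, 218 and 291 CPM in organoids. All organoids were higher, but the difference did not pass (0.85 ± 0.31, edgeR adjusted p = 0.0826). It passed without organoid 2, with DESeq2 and in limma-voom when each group had its own weight. The ratio of Igf2 to Igf2r counts was 0.422 to 0.515 in 2D culture and 1.43 to 2.67 in organoids.

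The IGF2BP proteins bind Igf2 and other mRNAs, and their genes moved in different ways. Igf2bp2 was at 14.1 ± 0.776 and 42.7 ± 21.0 CPM and rose by 1.60 ± 0.37 (edgeR adjusted p = 0.0213), but did not pass with total library size (1.02, adjusted p = 0.105). Igf2bp1 had 23 to 46 counts per library in 2D culture and 0 in organoids, at least 18.0-fold lower. Neither passed when any 1 of 2D culture 1, 2 and 3 was left out (adjusted p = 0.0805 to 0.102). Igf2bp3 did not pass (15.0 ± 1.43 and 13.4 ± 1.82 CPM). Igfbp7, a relative of the binding proteins with low affinity for IGFs, did not pass either (102 ± 2.94 and 123 ± 74.3 CPM). Igfbp1, a binding protein made mainly by liver, had 0 counts in all 6 libraries, and Igfals, which completes the plasma carrier complex, had at most 5.65 counts.

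In the edgeR fit of all 6 libraries, genes of receptor signalling downstream of IGF1R and the insulin receptor were higher or did not pass. Of 31 tested members of that list, 10 rose, 0 fell and 21 did not pass, and the median log2 fold change was 0.26. That is 32.3% called, all of them higher, near the 27.5% of all genes called in either direction (14.9% higher, 12.6% lower). At an unadjusted p below 0.05 in edgeR, 1 of the list were lower, and DESeq2 and limma-voom called 0 lower. Irs1, the adaptor that links both receptors to PI3 kinase, was at 48.5, 49.1 and 56.0 CPM in 2D culture and 381, 338 and 228 CPM in organoids. It rose by 2.62 ± 0.26 (edgeR adjusted p = 0.00117), with no overlap. Irs2, its relative, did not pass (10.6 ± 2.48 and 11.99 ± 1.20 CPM). Pik3ca, a catalytic subunit of PI3 kinase, rose by 2.10 ± 0.31, and Sos1, an exchange factor for RAS, by 2.14 ± 0.47. Sos1 did not pass when any 1 of 2D culture 1, 2 and 3 was left out (adjusted p = 0.0648 to 0.09) or with total library size. Akt1, Akt2 and Mtor did not pass. Without 2D culture 1, 2 or 3, 5 members of the list rose, and with total library size 6 rose and 1 fell. Without organoid 3, 9 rose and 1 fell.

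FOXO factors are held out of the nucleus by AKT and switch on genes of growth arrest, autophagy and insulin sensitivity. In a list of these factors and their targets, 10 genes rose, 2 fell and 10 did not pass, which is 54.5% of 22 called, against 27.5% of all genes (14.9% higher, 12.6% lower), with a median of 1.55. Foxo3 was at 13.9, 13.02 and 10.6 CPM in 2D culture and 216, 166 and 145 CPM in organoids, and rose by 3.81 ± 0.26 (edgeR adjusted p = 0.000343). Foxo1 rose by 3.63 ± 0.59. Ccng2, a cyclin of resting cells, rose by 4.16 ± 0.36, and Bnip3, a mitophagy gene that also responds to low oxygen, by 4.99 ± 0.38. Cited2, a transcription co-regulator, fell by 2.13 and the catalase gene Cat by 1.10 on the log2 scale. Cited2 and Cat did not pass when any 1 of 2D culture 1, 2 and 3 was left out (adjusted p = 0.0737 to 0.0984). The list had 4, 6 or 5 calls without 2D culture 1, 2 or 3, and with total library size 7 rose and 4 fell. Of its genes, Insr was also counted among the family partners and Irs2 in receptor signalling. The levels say nothing of where FOXO proteins were in the cells.

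**Figure D4:**
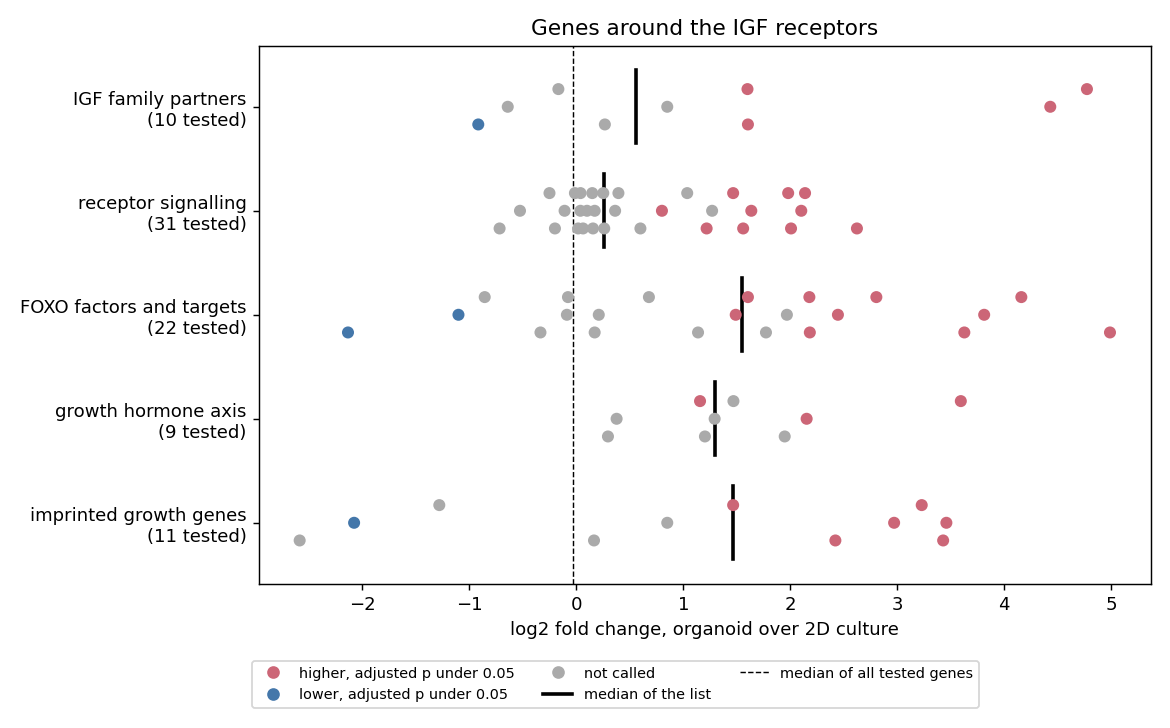
Log2 fold change of organoid over 2D culture (horizontal axis) for each tested gene of 5 lists (rows; Igf2bp1 is left out because it had 0 counts in organoids), coloured by call; vertical bars are list medians and the dashed line is the median of all tested genes, -0.03. The list medians lie between 0.26 (receptor signalling) and 1.55 (FOXO factors and targets). The lists overlap, with Insr, Irs2, Igf2r and Grb10 each drawn in more than a single row.

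The growth hormone axis, which drives Igf1 in growing animals, had 9 tested members, of which 3 rose, 0 fell and 6 did not pass (33.3% called, near the 27.5% of all genes, with a median of 1.29). Of all genes, 14.9% were called higher and 12.6% lower. At an unadjusted p below 0.05 in edgeR 0 were lower, and DESeq2 and limma-voom called 0 lower. Socs1 rose by 3.59 ± 0.55 and Socs2 by 2.15 ± 0.36; both encode feedback inhibitors of cytokine receptors. The kinase gene Jak2 rose by 1.16 ± 0.34 (edgeR adjusted p = 0.0441), a call held in 6 of 13 alternatives. It did not pass with total library size (0.57, adjusted p = 0.328), without the filter on low counts (adjusted p = 0.069) or in limma-voom when each group had its own weight (adjusted p = 0.0733). The growth hormone receptor gene Ghr was at 15.4, 11.7 and 11.1 CPM in 2D culture and 66.2, 15.6 and 11.97 CPM in organoids, where organoid 1 stood alone, and it did not pass (edgeR adjusted p = 0.193). Without 2D culture 1, 2 or 3 only Socs1 of this list was called, and with DESeq2 5 members were.

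Igf2 is an imprinted gene, expressed mainly from the paternal copy. Of 11 tested genes in a list of other imprinted growth genes, 6 rose, 1 fell and 4 did not pass (63.6% called, against 27.5% of all genes, with a median of 1.47). Calls over all genes were 14.9% higher and 12.6% lower. Igf2r was also counted among the family partners and Grb10 in receptor signalling. Plagl1, a zinc finger factor, was at 10.4, 8.96 and 9.97 CPM in 2D culture and 171, 65.2 and 86.3 CPM in organoids, and rose by 3.46 ± 0.41 (edgeR adjusted p = 0.0023). The cell cycle inhibitor gene Cdkn1c rose by 3.43 ± 0.50 and Peg3, another zinc finger gene, by 3.23 ± 0.29. Grb10, whose product dampens signalling from the insulin and IGF receptors, rose by 1.47 ± 0.29 but did not pass when any 1 of 2D culture 1, 2 and 3 was left out (adjusted p = 0.0735 to 0.0783). Ndn, which encodes necdin, fell by 2.08 on the log2 scale and did not pass in those fits either (adjusted p = 0.0605 to 0.0645). Mest and Gnas were also called higher but were uneven between organoids. Mest was at 44.3 CPM in organoid 2, within the 38.9 to 47.2 CPM of 2D culture, and was called in 5 of 13 alternatives. Gnas was at 447, 2826 and 445 CPM in organoid 1, 2 and 3. Without 2D culture 1, 2 or 3, 3 members of the list rose and 0 fell, and with total library size 4 rose and 1 fell. H19, a transcript near Igf2, was not analysed here.

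The genes nearest in profile to each called member were found by the root mean square difference of centred log2 CPM over the 6 libraries, among genes of at least 10 CPM in the higher group. Igf2 was nearest to Echdc2, Slc44a1 and Acss2 (differences of 0.16 to 0.17). Igfbp2 was nearest to Tagln and Pdlim1 (0.14 and 0.18), genes of the actin cytoskeleton, and then, at a wider 0.43, to Met. For Igfbp6 they were Panx1, Icam1 and Mfap4, and for Igfbp5 Prkcd, LOC691392 and Apbb3. Pappa was nearest to Stmn1, Cdk1 and Cenpa (0.11 to 0.14), and Pappa2 to Scrn1, Il1rl2 and Cnn1 (0.08 to 0.60). Profiles over 2 groups of 3 are dominated by the difference between the groups, so this is a description only.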

How the data were processed

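The 6 libraries were grouped, and their replicate numbers taken, from the sample titles. The values the authors deposited are expected counts per gene, some of them fractional, for 17954 genes. Tools named in the submitters' processing notes are RSEM, Bowtie2, HISAT, HISAT2 and DESeq2; for their roles and versions, and for genome build, annotation and strandedness, nothing is stated in the sources used. Counts were rounded and tested in R 4.3.3 with edgeR 4.0.16: filterByExpr (minimum count 10), TMM scaling, and robust quasi-likelihood F-tests, with p-values adjusted by Benjamini-Hochberg over 13052 genes (threshold 0.05). SE was taken as |log2 fold change| divided by the root of F. Levels are unrounded counts over the effective (TMM-scaled) library size, as CPM. For a group at 0 counts a floor of 3 counts over the group was used. DESeq2 1.42.0 and limma 3.58.1, among 13 alternatives, were also run. Replicates differed by more than sampling noise (chi-square over its degrees of freedom at least 8.80). Promoter sequences came from RefSeq (GRCr8), matched by gene ID.

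The members and gene lists were chosen with earlier results of these data known. The genes named are the 10 members, up to 3 called genes per direction and list with at least 1 CPM and the largest change, Stc1, Stc2, Htra1, Adam12, Insr and Igf2r, and the 3 genes nearest in profile to each called member. Other names were added after their values were seen.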

Additional observations from a re-analysis of the deposited data

How the results depend on the processing

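Of the 10 members, Igf2, Igfbp2, Igfbp6 and Pappa2 kept their direction and call under all 13 alternatives. Scaling by total library size moved the median log2 fold change of all genes by -0.61 and gave 1063 higher and 3529 lower calls (23.1% higher, against 54.1% with TMM, and 43.9% with limma-voom). Under it Igf1 was called (-1.48), Igfbp5 was not (1.14), and Igf1r (-0.54), Igfbp7 (-0.32) and Irs2 (-0.44) turned sign. DESeq2 called 5 genes of the growth hormone axis. Leaving out 1 library gave 1109 to 5321 calls over all genes, 2 to 7 among family partners, 5 to 11 in receptor signalling, 4 to 13 for FOXO factors and targets, 1 to 4 in the growth hormone axis and 3 to 8 imprinted genes. The low ends came without a 2D library. The same left log2 fold changes of -1.08 to -0.56 for Igf1, -0.19 to 0.30 for Igf1r, -1.48 to -0.48 for Igfbp3, 0.63 to 1.28 for Igfbp4, 1.61 to 2.08 for Igfbp5 and -3.04 to -1.96 for Pappa, and -0.27 (without organoid 2) to 0.59 for Igfbp7, and -0.74 to 0.23 for Mrpl23 (0.15 without organoid 3). The cause was not tested.

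Replicate numbers gave no clear pairing of the libraries. Deviations of same-numbered libraries correlated at 0.06, 0.19 and 0.02, those of other pairs at -0.13 to 0.07, and not every library correlated best with its own number. Deviations within groups of 3 cannot decide if same-numbered libraries share an animal or a day. With the replicate block 2730 genes and 5 members were called, Igfbp5 not among them (1.70, adjusted p = 0.0773); Jak2 (adjusted p = 0.113) and Igf2bp1 (adjusted p = 0.103) were not called either. Shares per length were not run, since no transcript lengths were used. The depth limits Pappa2 and Igf2bp1 to bounds.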

Other observations

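The genes next to the members in the RefSeq table (GRCr8), chosen after the members' values were seen, showed mixed changes. Igfbp2 and Igfbp5 are direct neighbours and went in opposite directions, by -6.06 and 1.79 on the log2 scale. Igfbp3 lies beside Igfbp1, which had 0 counts in every library. Beside Pappa2, Cop1, a ubiquitin ligase gene, was at 15.8 ± 2.32 CPM in 2D culture and 14.4 ± 1.80 CPM in organoids and did not pass (-0.13 ± 0.29, edgeR adjusted p = 0.765). The matrix gene Tnc, next to Pappa, fell by 1.15 on the log2 scale (edgeR adjusted p = 0.0439), and did not pass when any 1 library other than organoid 1 was left out (highest adjusted p = 0.158). Pgpep1l, next to Igf1r, rose by 2.13 ± 0.56 (edgeR adjusted p = 0.0314), and did not pass without 2D culture 1, 2 or 3 (highest adjusted p = 0.134) or with total library size (1.58, adjusted p = 0.0919). Mrpl23, a mitochondrial ribosome gene next to Igf2, did not pass (-0.07 ± 0.45, edgeR adjusted p = 0.927), but was called lower without organoid 2 (-0.74, adjusted p = 0.0132).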
